A study of Mus musculus with 18 samples.

Results

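The tissue macrophage markers examined here are 10 genes whose transcripts are used to recognise resident macrophages: Csf1r, Folr2, Cd163, Mrc1, Cd209d, Cd209f, C1qa, C1qb, C1qc and Laptm5. All probes that the platform annotation assigns to these symbols in the non-normalized table were taken. This gave 13 probes among the 45281 on the array, and 10 genes among the 19057 that the annotation names. Csf1r, Folr2 and Cd163 had 2 probes each, called here the brighter and the dimmer probe. Probes were taken by symbol alone, but the list of symbols was chosen with earlier results of these data known.

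Total RNA of 18 samples was hybridised to Illumina mouse bead arrays, in 6 groups of 3. Per the labels, the mice were C57Bl/6 animals aged 17 weeks that carried Fapbl-Cre, Apc2lox14/+ and tet-KrasLSL-G12D/+ (FAK mice), numbered 1, 5 and 7, and cells were taken from their colon tumours by a surface marker, with antibody-bearing magnetic beads. Cells of all groups were kept with Dox (doxycycline). For each mouse label, 3 samples were treated with 1 µM U73122 for 24 h, a small molecule that inhibits phospholipase C enzymes, and 3 were left untreated. Per the labels each number is 1 mouse, so a comparison of labels has no replicate animals by design. Which cells the Cre acts in was not stated in the labels. Nor did they state whether the 3 replicates of a group were separate cultures, and the p-values below therefore cover the variation among these arrays, which can be technical.

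Macrophages that live in a tissue depend on signalling through the CSF1 receptor, the product of Csf1r, and take up debris and sugars through scavenger receptors and lectins. They are also a main source of C1q, the recognition molecule of the classical complement pathway, which is assembled from the products of C1qa, C1qb and C1qc. In tumours the same genes mark tumour-associated macrophages, and in the liver many of them mark Kupffer cells, the resident macrophages of that organ.

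Levels below are background-corrected, quantile-normalized log2 signals, so that a difference of 1 is a doubling, and a probe was called detected on an array at a detection p under 0.05. Of all probes, 38.2% to 44.2% were detected on an array. Several measurements went against the labelled tissue. Epcam, which epithelial cells carry on their surface, was detected on 0 of the 18 arrays. It belongs to a list of 10 colon epithelium genes, whose other members were mixed. Fabp2 was detected on no array, and Cdx2, Krt20 and Vil1 on at most 2 arrays of a label. Lgals4 was detected on all 6 arrays of each label, and Muc2 on all 6 of labels 1 and 5. Krt8, Krt18 and Cdh1 were detected on all 6 arrays of label 7. Over each array, the mean of 6 hepatocyte genes lay at 11.20 to 11.40 under label 7 and at 4.90 to 6.02 under labels 1 and 5. Not every gene followed this mean. Tat averaged 5.19 under label 7, 5.26 under label 1 and 5.12 under label 5. Alb reached at most 6.15 under label 7, and Cyp2e1 averaged 10.07 under label 1. The mean of 6 adipocyte genes lay at 11.26 to 11.82 under label 1 and at 4.52 to 6.33 under the other labels, and that of 6 skeletal muscle genes at 13.77 to 14.46 under label 5. Xist, the transcript of the inactive X chromosome, was detected on 8 arrays: the 3 treated arrays and untreated replicate 2 under label 1, and the same 4 under label 5. Cells of a single mouse would share this transcript, so the arrays of labels 1 and 5 go against a single mouse for each. Whether samples were exchanged or mislabelled was not tested, and every label and treatment difference below holds for the arrays as labelled. Under labels 1 and 5, treated arrays are compared with untreated arrays of which 2 of 3 lacked it. Treatment results under these labels are therefore also given without the 4 untreated arrays that lacked Xist, where untreated replicate 2 is left alone and is assumed to vary like the other groups.

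Of the 13 probes, 7 (1 for each of 7 genes) were detected on all 18 arrays. These were Mrc1, C1qa, C1qb, C1qc, Laptm5 and the brighter probes of Csf1r and Cd163. Both Folr2 probes were detected on 17 arrays, Cd209f on 12, the dimmer Csf1r probe on 9, Cd209d on 7 and the dimmer Cd163 probe on 5. A probe entered the tests when detected on all 3 arrays of at least 1 group, which kept 12 of the 13 and 21193 of all probes. The dimmer Cd163 probe did not pass, and all 10 genes kept at least 1 probe. Over the 18 arrays the 2 probes of Folr2 had a correlation of 0.929, those of Csf1r 0.712 and those of Cd163 0.264. Because these are bulk samples, fewer macrophages and less of a transcript per macrophage cannot be told apart in anything that follows.

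Levels by mouse label came first. The C1q genes were brightest on the arrays of label 7, and the lectin Cd209f on those of label 1. C1qa encodes the A chain of C1q. Its level ran from 8.57 to 9.97 with a median of 9.01 under label 7, from 5.78 to 6.96 with a median of 6.21 under label 1, and from 5.04 to 5.91 with a median of 5.50 under label 5. The 6 arrays of label 7 thus lay above all 12 others, whereas labels 1 and 5 overlapped. C1qb, the B chain, ran from 10.14 to 11.45 (median 10.47) under label 7, from 8.46 to 8.98 (median 8.66) under label 1 and from 7.70 to 8.34 (median 7.84) under label 5. No array of C1qb in 1 label reached the range of another label. C1qc, the C chain, ran from 9.66 to 11.15 (median 10.12) under label 7, from 8.89 to 9.37 (median 9.11) under label 1 and from 7.63 to 8.50 (median 8.08) under label 5, also without overlap.

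In the limma fit on 18 arrays, with Benjamini-Hochberg adjustment over all 21193 probes, C1qa was higher under label 7 than under label 1 by 2.81 ± 0.18 (SE; adjusted p = 7.78e-11). The same difference was 1.89 ± 0.12 for C1qb (limma, adjusted p = 9.49e-11) and 1.09 ± 0.16 for C1qc (limma, adjusted p = 8.35e-06). Against label 5, label 7 was higher by 3.64 ± 0.18 for C1qa, 2.68 ± 0.12 for C1qb and 2.14 ± 0.16 for C1qc, with the largest limma adjusted p at 6.74e-10. Label 1 in turn was above label 5 by 0.83 ± 0.18, 0.79 ± 0.12 and 1.05 ± 0.16 for the A, B and C chains (limma, largest adjusted p 0.00066). The 3 chains therefore kept 1 order of labels, 7 above 1 above 5.

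The C1q genes lie side by side on mouse chromosome 4. The RefSeq sequence before the annotated start of C1qb and C1qc is shown because both genes kept the same order of labels without overlap. The stretches are chr4:136886201-136886450 for C1qb and chr4:136892937-136893164 for C1qc, both on the minus strand of GRCm38.p6, and 8 of the 10 members had an entry in the promoter table used. Capitals mark the 1 match in each to AGGAAGT, a core bound by ETS family factors such as PU.1 of myeloid cells, found on the reverse strand and so read as ACTTCCT.
C1qb: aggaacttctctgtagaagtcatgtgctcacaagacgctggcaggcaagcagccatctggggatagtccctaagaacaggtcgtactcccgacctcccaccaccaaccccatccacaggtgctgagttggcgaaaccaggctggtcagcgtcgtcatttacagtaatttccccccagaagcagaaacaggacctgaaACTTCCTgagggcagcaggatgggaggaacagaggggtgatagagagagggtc
C1qc: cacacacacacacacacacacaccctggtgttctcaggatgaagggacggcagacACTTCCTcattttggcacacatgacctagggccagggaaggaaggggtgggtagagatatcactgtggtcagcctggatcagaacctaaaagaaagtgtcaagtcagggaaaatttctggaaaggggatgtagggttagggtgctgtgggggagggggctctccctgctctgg
Both strands were searched, and the motif overlaps no other motif searched. Of all 32851 promoter windows, 7.69% held a match within the length used for C1qb and 6.83% within that used for C1qc. A match is a string of letters and not a measured site.

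Laptm5, a lysosomal membrane protein of blood-derived cells, also stood highest under label 7. It ran from 10.38 to 11.90 (median 10.81) there, from 8.29 to 9.56 (median 8.78) under label 1 and from 7.73 to 9.87 (median 7.91) under label 5. Label 7 did not overlap the others, and the highest array of label 5, treated replicate 2 at 9.87, lay above every array of label 1. Laptm5 was higher under label 7 than label 1 by 2.14 ± 0.29 and than label 5 by 2.70 ± 0.29 (limma, adjusted p = 2.08e-06 and 7.98e-08). Labels 1 and 5 differed by 0.56 ± 0.29 (limma, adjusted p = 0.107), and without treated replicate 2 of label 5 by 0.87 (limma, adjusted p = 0.00238). On that array the mean of 9 neutrophil genes was 10.20, the highest of the 18 arrays, where the others lay at 5.17 to 9.03. The part of these genes in the Laptm5 value was not tested.

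Mrc1 and Csf1r were also higher under label 7. Mrc1, the macrophage mannose receptor, ran from 9.17 to 9.65 under label 7, from 8.10 to 8.88 under label 1 and from 7.59 to 8.58 under label 5. Label 7 lay apart, and the other labels overlapped. The Mrc1 difference was 0.87 ± 0.14 against label 1 and 1.30 ± 0.14 against label 5 (limma, adjusted p = 1.8e-05 and 8.98e-08), and label 1 was above label 5 by 0.43 ± 0.14 (limma, adjusted p = 0.0129). The brighter Csf1r probe ran from 7.82 to 9.12 under label 7, from 7.20 to 8.08 under label 1 and from 7.43 to 8.26 under label 5, with overlap of all labels. It was higher under label 7 by 0.58 ± 0.16 and 0.54 ± 0.16 (limma, adjusted p = 0.00258 and 0.004), and labels 1 and 5 differed by -0.04 ± 0.16 (limma, adjusted p = 0.851). In untreated arrays alone these differences of label 7 were 0.51 and 0.38 and did not pass the threshold (limma, adjusted p = 0.0525 and 0.129). The dimmer Csf1r probe was detected on all 6 arrays of label 7, 2 of label 1 and 1 of label 5.

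Folr2 encodes a folate receptor found on a subset of resident macrophages. Its brighter probe ran from 7.16 to 8.30 (median 7.78) under label 7, from 5.89 to 7.39 (median 6.99) under label 1 and from 4.55 to 6.63 (median 5.83) under label 5. Each label overlapped the next in this order, and labels 7 and 5 did not overlap. The brighter probe was higher under label 7 than label 1 by 0.96 ± 0.25, than label 5 by 2.05 ± 0.25, and under label 1 than label 5 by 1.10 ± 0.25 (limma, adjusted p = 0.00201, 4.49e-07 and 0.000883). The dimmer probe gave 0.66, 1.50 and 0.84 in the same order, and the first of these lost its call in untreated arrays alone (limma, adjusted p = 0.134), in treated arrays alone (limma, adjusted p = 0.0993) and without any 1 of 3 arrays. Those arrays were untreated replicate 2 of label 1 (0.49; limma, adjusted p = 0.0804), treated replicate 3 of label 7 (0.61; limma, adjusted p = 0.0566) and untreated replicate 2 of label 7 (0.55; limma, adjusted p = 0.0745).

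Cd209d and Cd209f are mouse relatives of the human lectin DC-SIGN, and Cd209f was lowest under label 7. Cd209f ran from 5.48 to 8.01 (median 7.31) under label 1, from 5.15 to 6.75 (median 6.16) under label 5 and from 4.44 to 4.93 under label 7, where it was detected on 0 of 6 arrays. Since label 7 gives only a bound, Cd209f was at least 4.76-fold brighter under label 1 and at least 2.33-fold brighter under label 5 than under label 7 (limma, adjusted p = 6.52e-09 and 6.08e-06). It was higher under label 1 than label 5 by 1.03 ± 0.22 (limma, adjusted p = 0.000508), and by 0.73 in untreated arrays alone (limma, adjusted p = 0.0589). Cd209d ran from 4.43 to 5.82 under label 1, from 4.66 to 5.22 under label 5 and from 4.41 to 5.09 under label 7, with overlap throughout. Cd209d was detected on 4 of 6 arrays of label 1, 2 of label 5 and 1 of label 7, and treated label 1 was the only group with all 3 arrays detected. It thus entered the tests only through the group where it was brightest, and most of its other values lay near background, so its label differences are given as these ranges and not read as a test.

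Cd163, the scavenger receptor for haemoglobin bound to haptoglobin, was the member without a called difference between labels. Its brighter probe ran from 5.96 to 7.18 under label 7, from 6.18 to 6.95 under label 1 and from 5.97 to 6.84 under label 5. The differences were -0.20, 0.04 and 0.24 for label 7 against 1, 7 against 5 and 1 against 5 (limma, adjusted p = 0.243, 0.836 and 0.199).

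Over the 12 probes, which include Cd209d and, through label 7 alone, the dimmer Csf1r probe, 11 passed between labels 7 and 1 (9 higher and 2 lower), where 74.6% of all probes passed, 33% higher and 41.7% lower. Between labels 7 and 5, 10 passed (9 higher and 1 lower), against 79.1% of all probes, 38.1% higher and 41% lower. Between labels 1 and 5, 8 passed, all higher, against 58.5% of all probes in either direction and 32.4% higher. With most probes of the array passing as well, these counts are no result about the members. The median over the 10 genes was 0.91, 1.68 and 0.67 in these comparisons, and over all probes -0.13, -0.05 and 0.05. These comparisons share arrays. Labels differed in hepatocyte, adipocyte and muscle genes as given above, and mouse and tissue content cannot be told apart here. Of 9 Kupffer cell genes tested, 7 were higher under label 7 than label 1 and 9 than label 5. Clec4f, Vsig4, Timd4, Spic and Marco entered the tests only through label 7, where they were brightest, so these counts are a description. Clec4f, a lectin of mouse Kupffer cells, lay at 8.82 to 9.91 under label 7 and at 4.32 to 5.02 elsewhere. Vsig4, a complement receptor of Kupffer cells, lay at 10.18 to 11.23 under label 7 and at 4.54 to 5.07 elsewhere. Outside label 7, Vsig4 was detected on 3 of 6 arrays of each label. Cd5l, of the same list, was detected on 0 of 6 arrays of label 7 and was not tested. Id3 averaged 8.01 under label 7, 8.12 under label 1 and 6.64 under label 5.

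**Figure D1:**
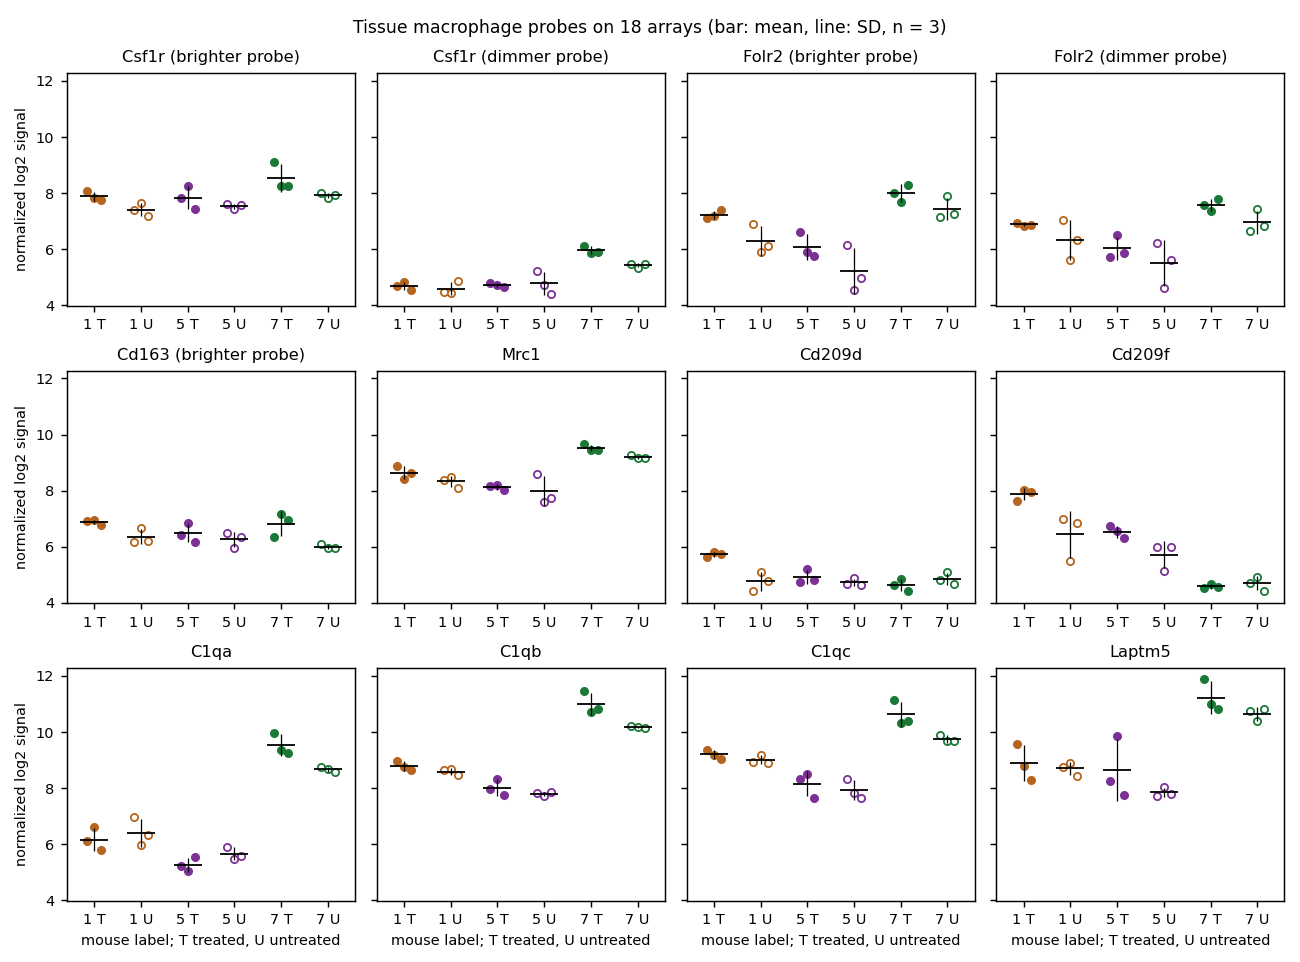
Normalized log2 signal of the 12 probes that entered the tests (vertical axis) on each array, by mouse label 1, 5 or 7 and treatment (T treated, U untreated). Points are arrays, horizontal bars group means and vertical lines the SD (n = 3); the C1q genes, Mrc1 and Laptm5 were highest under label 7, and Cd209f lay lowest there.

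**Figure D2:**
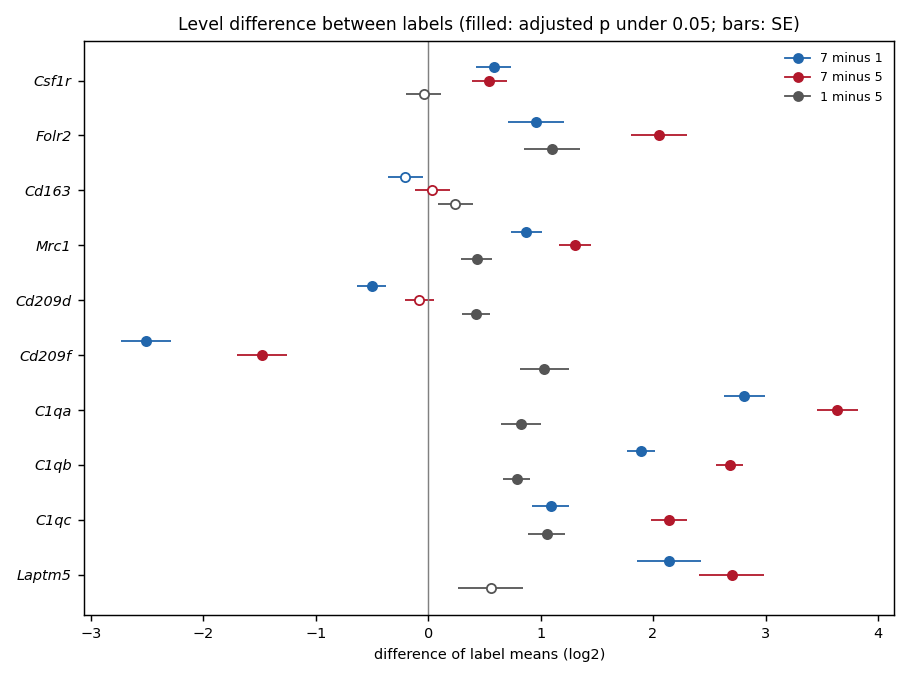
Difference of label means on the log2 scale (horizontal axis) for each gene's brighter or only probe, with its SE, for label 7 minus 1, 7 minus 5 and 1 minus 5. Filled points passed an adjusted p of 0.05; Cd163 has no filled point, and Cd209f lies at -2.51 and -1.48 for label 7.

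The treatment comparison asks which transcripts differ between cells with and without U73122. Under label 1, Cd209f rose with treatment, by 2.69-fold, and Cd209d was higher and passed as well. In all 2 of the 12 probes passed, where 0.67% of all probes passed and 0.595% passed as higher. Cd209d was 5.64, 5.82 and 5.74 on treated replicates 1 to 3 and 4.43, 5.10 and 4.79 on untreated replicates 1 to 3. Every treated array lay above every untreated one. Cd209d was detected on all 3 treated arrays and on 1 of 3 untreated arrays. The untreated group mean of 4.77 lay near background, and Cd209d entered the tests only through this treated group. Its call is therefore given as a description and supports nothing, with no fold. The fitted Cd209d difference was 0.96 ± 0.18 (SE; limma, adjusted p = 0.0164; higher in 3 of 3 arrays). Cd209f was 7.63, 8.01 and 7.97 on treated arrays and 6.99, 5.48 and 6.86 on untreated arrays. The groups did not overlap, and untreated replicate 2, the untreated array with Xist, was the lowest. The Cd209f difference was 1.43 ± 0.31 (limma, adjusted p = 0.0403).

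Both calls depended on single arrays. Cd209d lost its call without treated replicate 1 (1.01; limma, adjusted p = 0.0627), treated replicate 2 (0.91; limma, adjusted p = 0.0966), untreated replicate 1 (0.79; limma, adjusted p = 0.055) or untreated replicate 3 (0.97; limma, adjusted p = 0.0761) of label 1. Cd209f lost it without any 1 of treated replicates 1 to 3 or untreated replicates 2 and 3 of label 1, with values of 1.55, 1.36, 1.38, 0.94 and 1.64 (limma, adjusted p = 0.112, 0.189, 0.0627, 0.0749 and 0.0737), and also without any of 8 arrays of the other labels, where its value is the same by construction. Without the untreated arrays lacking Xist, the difference was 2.39 for Cd209f (limma, adjusted p = 0.000153) and 0.63 for Cd209d (limma, adjusted p = 0.157). In that fit both Folr2 probes also passed, with 1.34 and 1.26 (limma, adjusted p = 0.0434 and 0.04), among 999 of the 21193 probes.

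The sequences before the annotated starts of Cd209d and Cd209f, both on chromosome 8, are given because these were the members that passed under label 1. They are chr8:3878549-3878749 for Cd209d and chr8:4105839-4106014 for Cd209f, on the minus strand of GRCm38.p6 from RefSeq, and the letters AGGAAGT occurred in neither on either strand. Windows of these lengths held them at 5.71% and 4.83% of promoters.
Cd209d: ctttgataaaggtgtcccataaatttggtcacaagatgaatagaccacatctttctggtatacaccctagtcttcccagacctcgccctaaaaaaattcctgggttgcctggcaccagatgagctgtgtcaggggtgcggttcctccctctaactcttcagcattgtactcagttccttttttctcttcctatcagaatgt
Cd209f: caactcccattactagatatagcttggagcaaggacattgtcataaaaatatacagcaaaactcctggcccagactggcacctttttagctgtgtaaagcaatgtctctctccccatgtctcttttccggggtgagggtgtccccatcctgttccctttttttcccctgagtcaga

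Other members under label 1 were higher without passing. Folr2 (brighter probe) was 7.10, 7.19 and 7.39 on treated and 6.89, 5.89 and 6.10 on untreated arrays, a difference of 0.93 ± 0.35 (limma, adjusted p = 0.304). The groups did not overlap for this probe. For the dimmer Folr2 probe they did, with a difference of 0.56 ± 0.36 (limma, adjusted p = 0.635). The brighter probes of Cd163 and Csf1r also did not overlap, with differences of 0.53 ± 0.22 and 0.47 ± 0.22 (limma, adjusted p = 0.372 and 0.439). The dimmer Csf1r probe, near background here, overlapped. In all, 5 of 12 probes were higher without overlap, against 6.67% of all probes. That count includes Cd209d, which entered the tests only through the treated group of label 1 and so adds no support. C1qa was the only member gene lower in treated arrays, at -0.25 ± 0.26, and C1qb and C1qc differed by 0.20 and 0.19. The median over the 10 genes, Cd209d included, was 0.39, and -0.02 over all probes.

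Skeletal muscle genes moved with treatment under label 1 as well, where 0.595% of all probes passed as higher. Their mean was 12.46, 12.65 and 11.17 on treated arrays and 4.91, 10.07 and 7.43 on untreated arrays, and 5 of 6 rose, with a median of 4.74. The most certain was Actc1, cardiac actin, at 4.03 ± 0.56 (limma, adjusted p = 0.00242), detected on 1 of 3 untreated arrays. All 6 muscle genes were detected on each treated array. Of 5 mast cell genes 1 rose, the chymase Cma1 by 1.08 ± 0.21 (limma, adjusted p = 0.0197), and the list's mean lay at 6.52 to 6.78 on treated and 5.86 to 6.34 on untreated arrays. Of 8 fibroblast genes 0 passed, although their mean lay at 9.53 to 9.80 on treated and 8.10 to 9.07 on untreated arrays, and all 8 were higher; the smallest adjusted p was that of Fap, at 1.18 ± 0.27 (limma, adjusted p = 0.0556). The part of these tissues in the Cd209 differences was not tested.

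Under label 5, 0 of 12 probes passed by limma (2 at an unadjusted p under 0.05, against 11.4% of all probes), where 0.146% of all probes passed. Cd209f was 6.75, 6.55 and 6.32 on treated and 5.99, 5.15 and 5.98 on untreated arrays. The groups did not overlap, and untreated replicate 2 was again the lowest. The Cd209f difference was 0.83 ± 0.31 (limma, adjusted p = 0.302), the only member without overlap, against 6.24% of all probes. Folr2 (brighter probe) was 6.63, 5.89 and 5.76 on treated and 6.16, 4.55 and 4.99 on untreated arrays, with overlap, a difference of 0.86 ± 0.35 (limma, adjusted p = 0.342). Without the untreated arrays lacking Xist, 3 of 12 probes passed among 1589 of all: Cd209f at 1.39 and the Folr2 probes at 1.54 and 1.42 (limma, adjusted p = 0.00458, 0.0162 and 0.0167). Cd209d was detected on 1 of 3 arrays in either group of label 5, near background. The untreated arrays left alone in these fits stood apart in other lists as well. Untreated replicate 2 of label 5 had a neutrophil mean of 9.03, against 5.17 and 6.69 on the other untreated arrays of its label, and a fibroblast mean of 8.87, against 10.62 to 10.96 on the other 5 arrays. Untreated replicate 2 of label 1 had a neutrophil mean of 8.04, against 5.27 to 6.10 on the other 5. The part of these genes in the Folr2 and Cd209f values was not tested.

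Laptm5 under label 5 was 8.26, 9.87 and 7.77 on treated and 7.73, 8.03 and 7.78 on untreated arrays. Its difference of 0.79 ± 0.41 (limma, adjusted p = 0.487) rested on treated replicate 2, the array brightest in neutrophil genes, and was 0.17 without that array. C1qa was 5.24, 5.04 and 5.54 on treated and 5.91, 5.46 and 5.60 on untreated arrays, the only gene lower in treated arrays, at -0.38 ± 0.26 (limma, adjusted p = 0.623). The median over the 10 genes was 0.23. Mrc1, Csf1r, Cd163, C1qb and C1qc had differences between 0.15 and 0.30.

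Under label 7, C1qb rose with treatment by 1.76-fold, and 1 of the 12 probes passed, where 0.656% of all probes passed and 0.415% passed as higher. C1qb was 11.45, 10.72 and 10.81 on treated and 10.22, 10.17 and 10.14 on untreated arrays. All treated arrays lay above the untreated ones, and treated replicate 1 was the highest. The C1qb difference was 0.82 ± 0.17 (SE; limma, adjusted p = 0.0403; higher in 3 of 3 arrays). It lost the call without treated replicate 1 (0.59; limma, adjusted p = 0.2), untreated replicate 1 (0.84; limma, adjusted p = 0.101), untreated replicate 2 (0.82; limma, adjusted p = 0.125) or untreated replicate 3 (0.80; limma, adjusted p = 0.16) of label 7, and without any of 6 arrays of other labels (limma, adjusted p from 0.0508 to 0.06).

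The other C1q chains had differences of like size that did not pass. C1qc was 11.15, 10.34 and 10.40 on treated and 9.90, 9.66 and 9.69 on untreated arrays, a difference of 0.88 ± 0.23 (limma, adjusted p = 0.103). C1qa was 9.97, 9.36 and 9.26 on treated and 8.75, 8.70 and 8.57 on untreated arrays, a difference of 0.86 ± 0.26 (limma, adjusted p = 0.168). Neither chain's groups overlapped, and treated replicate 1 was again the highest. The sequences printed above are those before C1qb and C1qc, and none is printed for C1qa. Cd163 was 6.34, 7.18 and 6.96 on treated and 6.08, 5.96 and 5.97 on untreated arrays, a difference of 0.82 ± 0.22 (limma, adjusted p = 0.111). Here treated replicate 1 was the lowest treated array, and without it the difference was 1.07 (limma, adjusted p = 0.0462).

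In all, 7 of 12 probes were higher without overlap under label 7, against 9.04% of all probes. Besides the C1q genes and Cd163 these were Mrc1, at 0.32 ± 0.20, and both Csf1r probes, at 0.62 ± 0.22 and 0.53 ± 0.18 (limma, adjusted p = 0.658, 0.289 and 0.227). Laptm5 was 11.90, 10.98 and 10.81 on treated and 10.74, 10.38 and 10.82 on untreated arrays, and its groups overlapped. Folr2 (brighter probe) differed by 0.56 ± 0.35 with overlap. Cd209f was detected on no array of either group, and Cd209d, detected on 1 untreated array, was not well above background in the treated group. The median over the 10 genes was 0.60.

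Kupffer cell genes moved in the same arrays, where 0.415% of all probes passed as higher. Of 9 tested 2 rose, the scavenger receptor Marco by 2.03 ± 0.26 and Timd4, a receptor for dying cells, by 1.14 ± 0.20 (limma, adjusted p = 0.000626 and 0.00941), with a list median of 0.67. The mean of the list was 9.01, 8.36 and 8.38 on treated and 7.90, 8.0 and 7.76 on untreated arrays, without overlap and with treated replicate 1 the highest, as for C1q. The same held for the means of the other resident macrophage, monocyte, neutrophil, dendritic cell and lymphocyte lists. In this order they lay at 7.37 to 8.10, 7.01 to 7.63, 5.47 to 6.18, 6.62 to 7.0 and 5.05 to 5.34 on treated arrays. On untreated arrays they lay at 7.01 to 7.30, 6.80 to 6.96, 5.23 to 5.31, 6.21 to 6.51 and 4.93 to 5.0. The means of the mast cell and fibroblast lists overlapped. Of 12 other resident macrophage genes 1 rose, Aif1 by 1.27 ± 0.26 (limma, adjusted p = 0.0327), and of 5 dendritic cell genes 1 rose, H2-Ab1 by 1.15 ± 0.25 (limma, adjusted p = 0.0419). The 6 hepatocyte genes had a median of -0.07, with 0 called by limma. The part of the Kupffer cell genes, or of the other lists, in the C1qb difference was not tested.

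**Figure D3:**
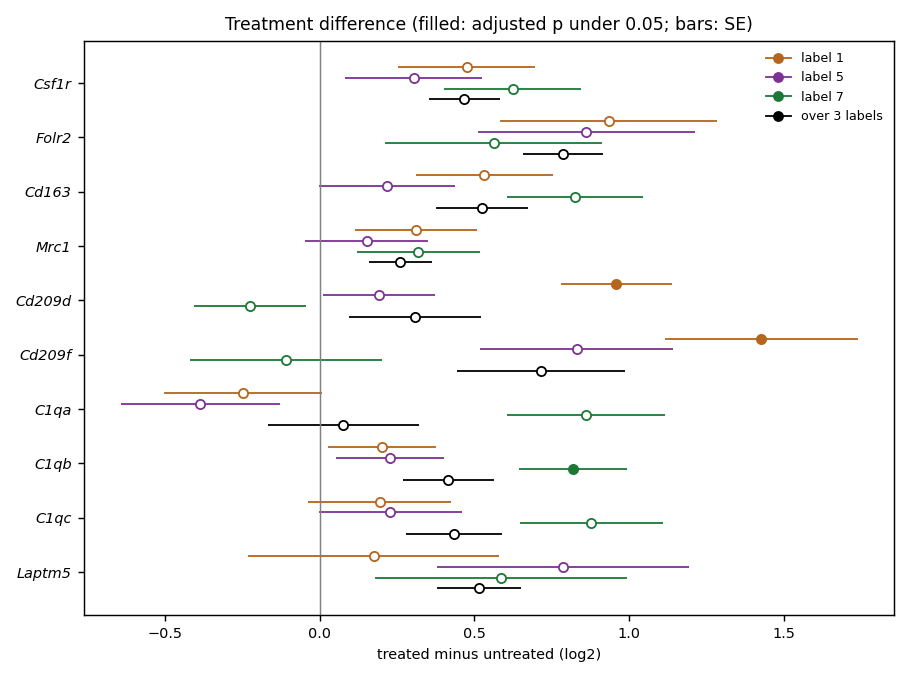
Treated minus untreated on the log2 scale (horizontal axis), with its SE, for each gene's brighter or only probe in labels 1, 5 and 7 and over the 3 labels. Filled points passed an adjusted p of 0.05: Cd209d and Cd209f in label 1 and C1qb in label 7.

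**Figure D4:**
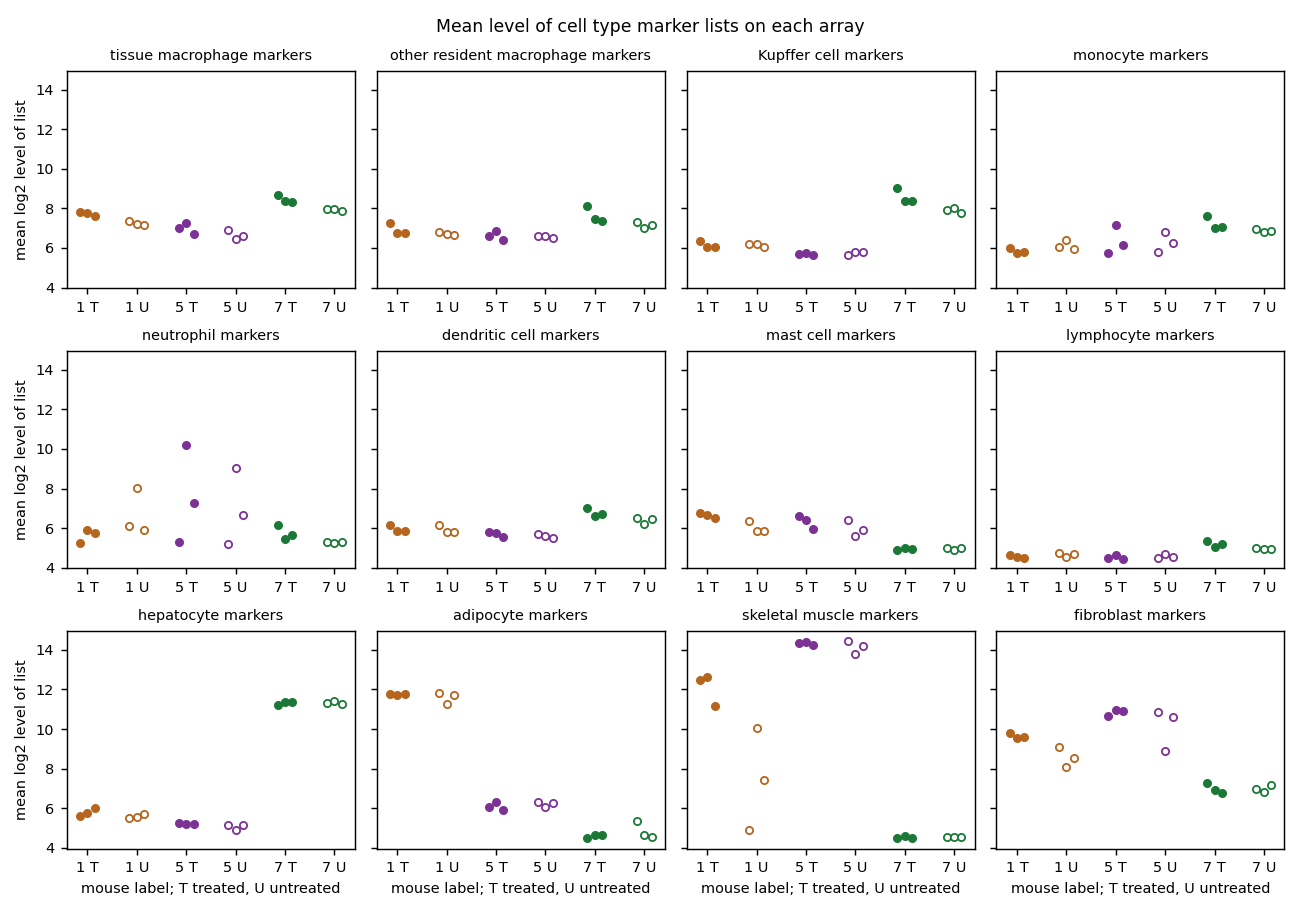
Mean log2 level of each marker list (vertical axis) on the 18 arrays, by mouse label and treatment (T filled, U open). Muscle genes separate treated from untreated arrays under label 1, from 11.17 to 12.65 against 4.91 to 10.07. Kupffer cell genes do so under label 7, as do both macrophage lists and the monocyte, neutrophil, dendritic cell and lymphocyte lists.

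On average over the 3 labels, all 10 genes were higher in treated samples and 0 of 12 probes passed, as 0% of all probes did. In this fit the 3 arrays of each group were averaged to 6 profiles, with mouse label and treatment as terms. Of all probes, 47.1% were higher by any amount. Not every gene was higher in each label. C1qa was at -0.25 and -0.385 in labels 1 and 5. Cd209d and Cd209f were at -0.22 and -0.11 in label 7, where their values lay near background and still entered the average. Cd209d entered the tests only through treated label 1 and was detected on at most 1 of 3 arrays of every other group. It is counted in the 10 genes and in their median, and adds no support there. Folr2 had the smallest unadjusted p among members, with its brighter probe at 7.23, 6.09 and 8.0 in the treated profiles of labels 1, 5 and 7 and at 6.29, 5.23 and 7.44 in the untreated ones. The difference of Folr2 was positive in 3 of 3 labels, and averaged 0.79 ± 0.13 (limma, unadjusted p = 0.00063, adjusted p = 0.779). Laptm5 differed by 0.52 ± 0.14, Cd163 by 0.52 ± 0.15 and Csf1r by 0.47 ± 0.11, each in the same direction in 3 of 3 labels (limma, adjusted p = 0.779). C1qb and C1qc differed by 0.42 ± 0.15 and 0.43 ± 0.15, Mrc1 by 0.26 ± 0.10 and C1qa by 0.08 ± 0.24. At an unadjusted p under 0.05, 9 of 12 probes passed, against 6.09% of all probes. The median over the 10 genes was 0.45, and -0.01 over all probes.

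The labels' treatment differences were compared with a moderated F test in limma, in which 0 of 12 member probes passed and 0.236% of all probes did. The smallest adjusted p was 0.109 (limma), for Cd209d, which was detected on at most 1 of 3 arrays in each group outside treated label 1 and so compares values near background in labels 5 and 7. C1qa, at -0.25, -0.38 and 0.86, had an adjusted p of 0.217 (limma), and Cd209f, at 1.43, 0.83 and -0.11, one of 0.26. The calls in label 1 and in label 7 are thus not shown to differ between labels with all arrays. Cd209f was detected on 0 of 6 arrays of label 7, so its comparison also uses values near background there. Without the untreated arrays lacking Xist, labels 1 and 5 keep 1 untreated array each, and this test is not read.

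Other genes of these pathways were counted as well, where 0.67%, 0.146% and 0.656% of all probes passed in labels 1, 5 and 7. Of 11 genes of CSF1 receptor ligands and myeloid regulators, 0 passed in any label (limma), with medians of -0.12, 0.23 and 0.45 in labels 1, 5 and 7. Of 8 genes of the classical complement pathway and C1q partners 1 passed, C4b, which fell by 1.24 under label 5 (limma, adjusted p = 0.0365). Of 9 other scavenger and lectin receptors 1 passed under label 7, Marco, the same gene as counted among the Kupffer cell genes. Of 8 genes of alternative activation, a macrophage state driven by interleukin signals, 0 passed in any label, with medians of -0.14, 0.08 and 0.58.

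Members did not move as 1 block from array to array. The mean of the 10 genes, Cd209d included, was 7.83, 7.76 and 7.60 on treated and 7.36, 7.20 and 7.14 on untreated arrays of label 1, without overlap. Under label 5 it was 7.03, 7.27 and 6.72 on treated and 6.93, 6.46 and 6.62 on untreated arrays, which overlapped. Under label 7 it was 8.68, 8.35 and 8.32 on treated and 7.97, 7.98 and 7.87 on untreated arrays, without overlap. Treated replicate 1 of label 7 had the highest value of its label in 6 of 10 genes, treated replicate 2 of label 5 also in 6 and treated replicate 1 of label 1 in 5. As deviations from the label mean, Csf1r had the highest correlation with the mean of the other members over 18 arrays, 0.858, followed by C1qb (0.805), C1qc (0.789), Mrc1 (0.726), Folr2 (0.642), Cd163 (0.633), Laptm5 (0.532), Cd209f (0.405), Cd209d (0.280) and C1qa (0.147). That of C1qa was -0.210 within label 1, -0.575 within label 5 and 0.996 within label 7. Within label 7, where Cd209d and Cd209f were near background, the values of these lectins were -0.469 and -0.335. These values describe arrays that share labels, and carry no test.

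**Figure D5:**
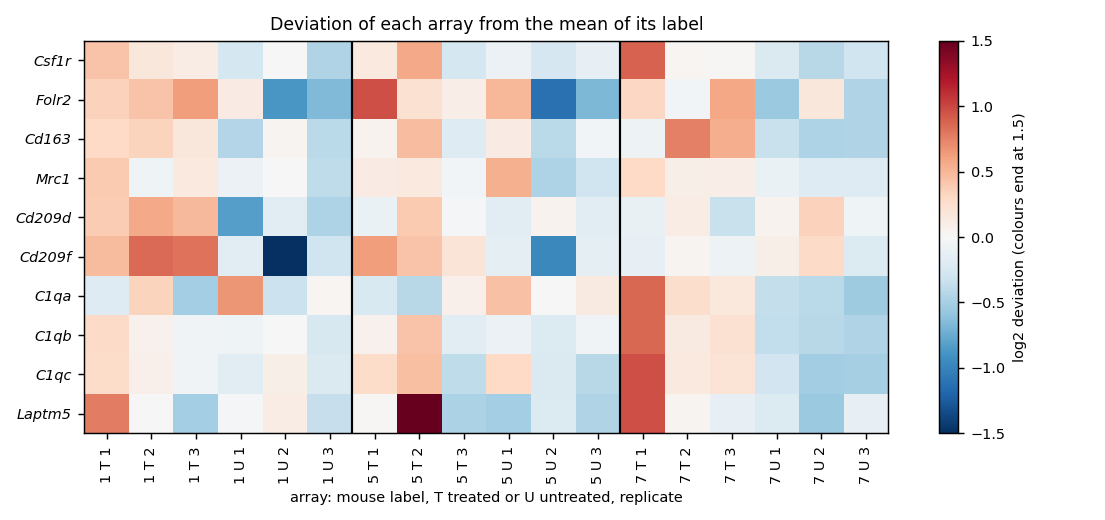
Deviation of each array from the mean of its label on the log2 scale (colour, ending at 1.5 in either direction) for 10 genes (rows, brighter or only probe) and 18 arrays (columns: label, T treated or U untreated, replicate). Treated replicate 1 of label 7 is high in the C1q genes, Csf1r and Laptm5, and untreated replicate 2 of labels 1 and 5 is low in Folr2 and Cd209f.

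The 8 genes outside the list whose deviations were most like the mean of the members, by Pearson correlation over the 18 arrays, were Cfp (0.899), Ppp1r3d (0.875), Ctsc (0.865), Prune1 (0.855), Il33 (0.848), Tnfaip2 (0.846), F13a1 (0.841) and Ripor2 (0.824). Cfp encodes properdin, a stabiliser of the alternative complement pathway. Its correlation was 0.869 within label 1, 0.810 within label 5 and 0.997 within label 7, and its treatment difference was 0.66 ± 0.24, 0.65 ± 0.24 and 0.95 ± 0.24, with 0 of these passing (limma, adjusted p = 0.286, 0.296 and 0.0882). Ctsc encodes cathepsin C, a lysosomal protease, and its correlation was 0.876, 0.764 and 0.956 within labels 1, 5 and 7. F13a1 encodes a coagulation factor subunit, with 0.733, 0.991 and 0.785.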

How the data were processed

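The members and gene lists were chosen with earlier results of these data known. In the deposited non-normalized table, each probe has an intensity and a detection p-value on every array, as the file headers name them. Between 23.2% and 30.9% of an array's intensities were below 0, so the authors' values had been background subtracted. The authors' series matrix, deposited as quantile-normalized linear intensity values, served as an alternative. Scanner software and chip positions were not given in the sources used here, and no batch could be tested. Column names matched all 54 columns to samples.

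The platform annotation gave probe symbols (34885 with 1 symbol, 18 with several, 10378 with none). Signals were background corrected, quantile normalized and taken to log2 by the limma function neqc (limma 3.58.1, R 4.3.3; offset 16), which used the detection p-values. Of all probes, 21193 were kept. A fit with a mean per group on 18 arrays, with an intensity trend in the variance, gave the treatment differences by label, their comparison (moderated F) and the label differences, and 6 averaged profiles gave the treatment difference over 3 labels. All p-values are two-sided and adjusted by Benjamini-Hochberg over the kept probes, and an adjusted p under 0.05 was called. Gene-level values use the brightest kept probe. Of members all probes are described; of other lists, counts and at most 3 members by smallest p in the comparison; and the 8 genes most like the members. A group in which a probe was detected on no array has only a bound. Replicate numbers were not used as pairs. No arrays held identical values (highest correlation of a pair 0.993). The fits were checked on simulated data. The number of arrays limits the precision. Alternatives were the matrix values, no background correction, other filters, 1 probe per gene, robust variances, a stricter threshold, left-out arrays, replicate number as a block, fewer arrays, and Xist.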

Additional observations from a re-analysis of the deposited data

How the results depend on the processing

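Counts of the 12 member probes passing were 2, 0 and 1 for treatment in labels 1, 5 and 7, 0 over the 3 labels and 0 for the difference between labels. With the deposited matrix values they were 1 in label 1, 2 in label 7 and 1 for the difference (198, 305 and 100 of all probes, and 93 in label 5, against 142, 139, 50 and 31). Without background correction 1 passed in label 1, without a filter 0 in label 7, and at an adjusted p under 0.01 0 in both. In the 6 arrays of a label alone 0 passed in labels 1 and 7 (1 and 27 of all probes). Leaving out each array in turn gave 0 to 2 in label 1, 0 to 1 in label 7, 0 in label 5, 0 to 1 for the difference, 10 to 11 for label 7 against 1, 10 for label 7 against 5 and 8 to 9 for label 1 against 5; over all probes the counts ran from 28 to 356 in label 1, 16 to 209 in label 5 and 50 to 308 in label 7. Robust variances called 90 of all probes in label 1, and 1 probe per gene 8 in label 5 and 65 in label 7. The fit without untreated arrays lacking Xist left 1 untreated array in each of labels 1 and 5, and its differences are given above. With Xist as a covariate 4, 3 and 1 passed for labels 1, 5 and the difference (1209, 1230 and 720 of all probes). Between labels 1 and 5, 4 of 12 passed in untreated arrays alone (10459 of all probes), and Cd209d, label 7 minus label 1, turned from -0.504 to 0.0874 there (limma, adjusted p = 0.689). The cause was not tested. Another 27 values that passed in neither setting changed sign. With the replicate block 2 member probes passed in label 7 (C1qc at an adjusted p of 0.0368 in limma) and 1 for the difference, and 265, 19 and 141 of all probes in labels 1, 5 and the difference. Same-numbered treated and untreated arrays had correlations of their deviations from -0.02 to 0.26, not all over 0.1. Of 9 treated arrays, 7 correlated best with their own number. The numbers were not taken as pairs in the main fits, and whether they are pairs cannot be told from these values. A detection p under 0.01 left 6 member probes detected on all arrays in place of 7.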

Other observations

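Values of further macrophage genes by mouse label are given as a description. Between labels 7 and 1, 33% of all probes passed as higher and 41.7% as lower, so that a count near 74.6% says nothing of a list. Of 12 other resident macrophage genes tested, 9 were higher and 1 was lower under label 7. The lower one was Pf4, a chemokine first known from platelets, at -3.50 ± 0.18 (SE; limma, adjusted p = 3.34e-12), and it was also lower than under label 5, at -2.84 ± 0.18 (limma, adjusted p = 4.99e-11). Aif1, which encodes the actin-binding protein IBA1 of macrophages, was higher under label 7 by 2.55 ± 0.18 and 2.92 ± 0.18. Of 8 alternative activation genes, 3 were higher and 3 lower, at the share of all probes. Retnla, a secreted protein of alternatively activated macrophages, lay at 4.32 to 5.17 under label 7, where it was detected on 2 of 6 arrays, and at 8.29 to 10.32 under label 1. Arg1, which hepatocytes also express as an enzyme of the urea cycle, lay at 13.79 to 14.21 under label 7 and at 4.30 to 4.84 under label 1, where it was detected on 1 of 6 arrays. The hepatocyte genes were high on the same arrays, and their part in these differences was not tested.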
